A study of Mus musculus with 6 samples.

Results

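Keratins and tubulins, the building blocks of intermediate filaments and microtubules, were followed in the livers of C57BL/6 mice after 2 days on a high fat diet (HFD) or on a regular diet (RD). The 10 genes asked about were the hepatocyte keratins Krt8 and Krt18, the keratins Krt7, Krt19 and Krt23, grouped here as bile duct keratins, and the tubulins Tubb2a, Tubb2b, Tubb6, Tuba1c and Tuba8. Each was read from the brightest probe set that the platform's annotation gives to that symbol alone, which left 9 of the 10 among 19938 genes tested. Tuba1c shares all its probe sets with other alpha tubulins and has no value of its own. The genes were chosen by their log2 differences between the diets on these same arrays, so their values are a description and carry no p-value.

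C57BL/6 is an inbred laboratory strain. Total RNA of frozen liver was labelled for GeneChip arrays, with livers from 3 HFD and 3 RD mice, given as biological replicates, on 1 array each. The titles of all 6 samples include the unexplained letters NI, which may mark a condition common to both diets. Age, sex and diet composition were not used here.

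Keratins form filaments only as pairs of a type I and a type II protein. Adult hepatocytes make Krt8 (type II) and Krt18 (type I), while the epithelium of the bile ducts adds Krt7 (type II) and Krt19 (type I). Hepatocyte keratins are known to rise in injured liver, where with Sqstm1 they build the inclusions called Mallory-Denk bodies. Microtubules are polymers of alpha and beta tubulin dimers, on which hepatocytes move secretory vesicles, and cells are known to destabilise tubulin mRNA when free tubulin is plentiful.

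Values are log2 signals, and differences are HFD minus RD on that scale with the moderated standard error (SE) of limma, so a difference of 1 is a doubling of the signal. Array medians lay between 7.06 and 7.11. Pearson's r between arrays across genes, which are not independent replicates, was 0.996 to 0.997 within a diet and 0.991 to 0.994 across diets. A gene counted as called when its Benjamini-Hochberg adjusted p over all genes tested was under 0.05. Called genes were 3.11% of all genes in the higher direction and 2.24% in the lower direction. In limma 3926 of the 19938 genes had an unadjusted p under 0.05. Counts for the gene lists below are to be read beside these figures. Among the 9969 genes brighter than the median over the 6 arrays, 5.21% were called higher in this fit, and 8.65% when the fit was run on them alone. Detection calls were not used here, and precision is limited by having 3 arrays per diet.

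All 9 measured genes had a higher mean in HFD livers. Their differences ran from 0.33 for Krt7 to 1.35 for Tubb2a, with a median of 0.68, beside a median of -0.0029 over all genes. Krt8, Krt18, Krt7, Krt19 and Tubb2a were called higher, which makes 5 of 9 beside the 3.11% of all genes called higher. These 5 were also the members whose 3 HFD values all lay above the 3 RD values, a separation seen in 14.0% of all genes in that direction. Since the same contrast chose the genes, nothing is read from these counts.

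**Figure D1:**
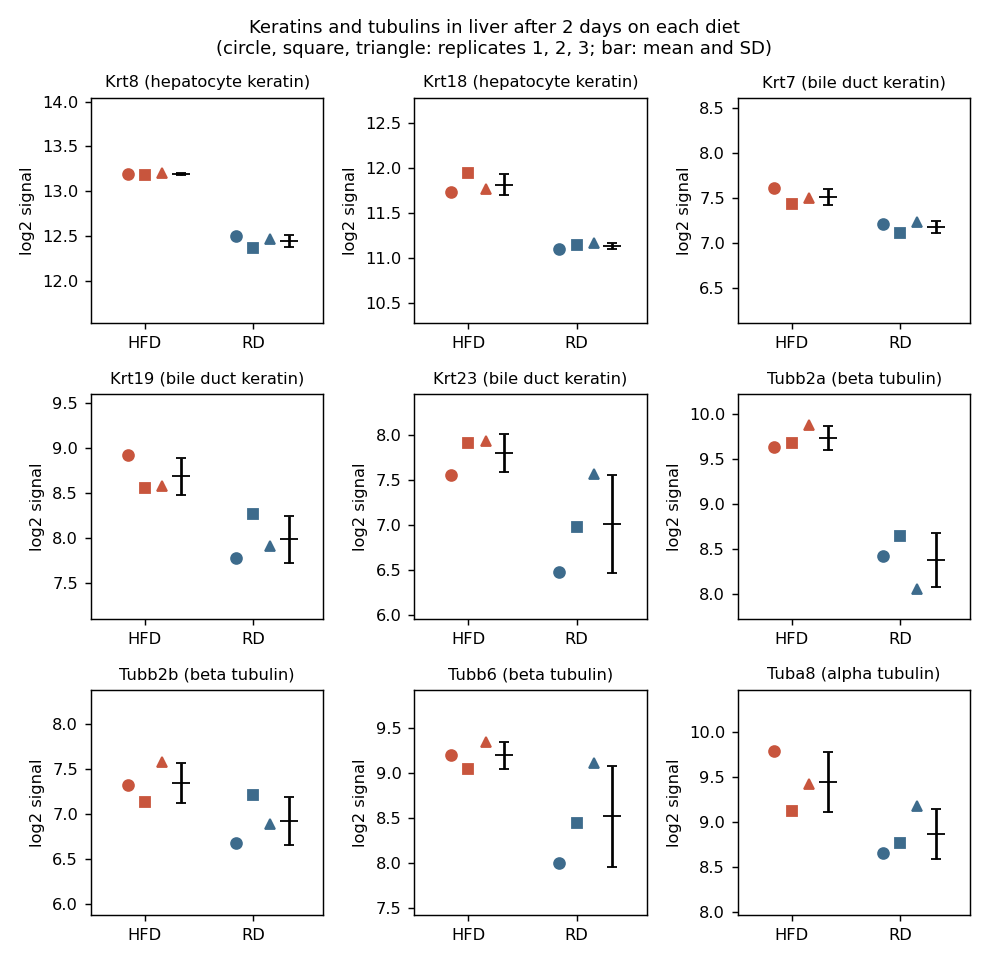
Log2 signal of the 9 measured genes in each liver, HFD (red) left of RD (blue); marker shapes give replicates 1, 2 and 3, bars give the mean and SD (n = 3), and every panel spans the same range of log2 units. The diets are apart for Krt8, Krt18, Krt7, Krt19 and Tubb2a, and a single RD array reaches the HFD values for Krt23, Tubb2b, Tubb6 and Tuba8.

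Both genes of the hepatocyte pair were higher in HFD livers. Among the HFD livers Krt18 had more spread than Krt8 (SD 0.12 against 0.0084, n = 3 each). Krt8 (probe set 10432918) had log2 signals of 13.19, 13.19 and 13.20 in HFD livers, against 12.51, 12.37 and 12.47 in RD livers. The HFD values span 0.016 and lie well above the RD values, 0.68 apart at the nearest. The difference was 0.74 ± 0.07 (SE), or 1.67-fold. Krt18 (probe set 10427075), its type I partner, had 11.74, 11.95 and 11.76 in HFD livers and 11.10, 11.14 and 11.17 in RD livers. Again no HFD value came near an RD value, and the difference was 0.68 ± 0.08, or 1.60-fold. Their log ratio, Krt8 minus Krt18, averaged 1.37 ± 0.12 in HFD livers and 1.31 ± 0.09 in RD livers (SD, n = 3 each), with overlapping values. On dropping each single array in turn the differences ran from 0.70 to 0.77 for Krt8 and from 0.61 to 0.72 for Krt18, which describes the same contrast that chose them.

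The sequences just upstream of the starts of this pair and of Tubb2a are shown for the keratin pair of hepatocytes and for the member with the largest difference, a choice made on the same values. They are the 250 bases before the RefSeq gene start in GRCm38.p6, written along the gene's own strand, 5′ to 3′. RefSeq entries matched 7 of the 10 genes.
Krt8, chr15:102004343-102004592, minus strand: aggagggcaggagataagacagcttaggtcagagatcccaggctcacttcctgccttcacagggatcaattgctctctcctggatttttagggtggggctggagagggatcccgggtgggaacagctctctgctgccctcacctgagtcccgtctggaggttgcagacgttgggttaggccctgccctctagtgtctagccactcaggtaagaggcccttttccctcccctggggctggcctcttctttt
Krt18, chr15:102027966-102028215, plus strand: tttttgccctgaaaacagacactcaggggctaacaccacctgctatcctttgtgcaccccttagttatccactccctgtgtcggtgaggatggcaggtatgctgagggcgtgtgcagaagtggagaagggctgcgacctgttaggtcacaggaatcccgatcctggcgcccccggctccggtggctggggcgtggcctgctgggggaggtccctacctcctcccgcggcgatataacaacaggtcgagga
Tubb2a, chr13:34078009-34078258, minus strand: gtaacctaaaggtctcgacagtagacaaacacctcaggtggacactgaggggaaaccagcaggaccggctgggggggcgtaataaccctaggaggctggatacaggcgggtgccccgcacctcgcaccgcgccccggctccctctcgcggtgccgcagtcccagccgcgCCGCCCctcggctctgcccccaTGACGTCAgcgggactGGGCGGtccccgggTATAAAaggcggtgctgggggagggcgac
Capitals mark matches on either strand to motifs of 6 kinds. The TATA box was searched as TATAAA, and the CCAAT box by the letters of its name. A GC box was searched as GGGCGG, and an AP-1 site was taken to be TGANTCA. The core of the antioxidant response element was searched as TGACNNNGC. The cAMP response element, TGACGTCA, was added after the Tubb2a sequence had been seen, and no match overlapped another.

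Krt8 and Krt18 lie on opposite strands of chromosome 15 with starts 23.9 kb apart, and neither window holds any of these 6 motifs. The Tubb2a window holds a TATA box that begins 29 bases before the start, GC boxes at 43 and 81 bases, and a cAMP response element at 59 bases. Among 32851 promoter windows of the same length, 12.4% hold the TATA box, 32.7% the GC box and 1.55% the cAMP response element. The AP-1 motif is in 6.75% of windows and in none of the 7 members' windows. The CCAAT box, in 33.9% of windows, and the antioxidant core, in 10.2%, were each found in the Tuba1c window alone of the 7. The Krt8 window is 58.0% G and C, that of Krt18 60.4% and that of Tubb2a 68.4%, beside a median of 52.4%. A match describes letters and not a bound site.

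The bile duct keratins also had higher means in HFD livers, with wider spread for Krt19 and Krt23 than for Krt7. Krt19 (probe set 10391036), the classic marker of bile duct cells, had log2 signals of 8.93, 8.56 and 8.58 in HFD livers, against 7.78, 8.27 and 7.91 in RD livers. HFD replicate 1 was the highest array and RD replicate 2 the nearest control, with 0.29 between the lowest HFD and that RD value. The difference was 0.70 ± 0.14, or 1.63-fold. Krt7 (probe set 10427052), a type II keratin of the ducts, had 7.61, 7.43 and 7.49 in HFD livers and 7.21, 7.10 and 7.23 in RD livers. Its difference of 0.33 ± 0.07, or 1.26-fold, was the smallest of the 9, with the groups 0.20 apart. Krt23 (probe set 10390860), a type I keratin, had 7.55, 7.91 and 7.93 in HFD livers and 6.48, 6.98 and 7.57 in RD livers. RD replicate 3 lay just above HFD replicate 1, so the groups overlap, and the difference of 0.79 ± 0.24 was not called.

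Calls in this group depended on single arrays. Dropping RD replicate 2 kept the call of Krt19, at 0.85, and dropping any other array lost it, with differences down to 0.58. Krt7 was not called without any 1 of the 6 arrays, at 0.28 to 0.37. Krt23 was called without RD replicate 3, at 1.07, and its lowest difference, without RD replicate 1, was 0.52. Averaged over its 3 genes the group was 0.61 higher in HFD livers, or 0.52 for Krt7 and Krt19 alone, against 0.71 for the hepatocyte pair. The hepatocyte mean per array was 12.46, 12.57 and 12.48 in HFD livers and 11.81, 11.76 and 11.82 in RD livers. The duct mean was 7.97 to 8.03 in HFD livers and 7.15, 7.45 and 7.57 in RD livers. Both sets of means are apart between the diets, which describes the contrast that chose the genes, although Krt23 by itself overlaps. In HFD replicate 1 the deviation from the diet mean was 0.24 for Krt19 and -0.24 for Krt23, which offset each other in the duct mean. The duct mean had an SD of 0.032 in HFD livers and 0.21 in RD livers, or 0.15 in HFD livers and 0.098 in RD livers without Krt23, and the hepatocyte mean had 0.055 in HFD livers and 0.034 in RD livers (n = 3 each).

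Other markers of bile duct epithelium rose alongside Krt19 and Krt7. Of 10 measured from a list of 13, 6 rose and 0 fell in limma, beside 3.11% and 2.24% of all genes. The median difference of the 10 was 0.35, and 8 had an unadjusted p under 0.05, beside 3926 of all 19938 genes. Only 5 of the 10 were among the brighter genes. Epcam, an epithelial adhesion molecule, rose by 0.54 ± 0.10 (adjusted p = 0.019) with 6.84, 6.68 and 6.59 in HFD livers, against 6.14, 6.02 and 6.31 in RD livers. Cd24a, a surface glycoprotein, rose by 0.68 ± 0.13 (adjusted p = 0.026), the tight junction gene Cldn7 by 0.48 ± 0.11 (adjusted p = 0.040) and Sox9, the transcription factor of duct cells, by 0.29 ± 0.06 (adjusted p = 0.037). Named after their values were seen, the chloride channel Cftr (0.29 ± 0.07) and the mucin Muc1 (0.52 ± 0.12) make up the 6, while the secretin receptor Sctr had -0.07 ± 0.11. On dropping 1 array the count was 0 (RD replicate 1), 1 (RD replicate 3, HFD replicate 1, HFD replicate 2) or 2 (RD replicate 2, HFD replicate 3). In whole liver, more duct cells and more of these transcripts per cell cannot be told apart.

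The list's summed signal was 11.49 to 11.62 in HFD livers and 11.07 to 11.25 in RD livers on the log2 scale. For 9 hepatocyte markers such as Trf (0.05 ± 0.06) and Hnf4a (0.04 ± 0.06) it was 17.27 to 17.31 in HFD livers and 17.29 to 17.31 in RD livers, with 0 called in limma and 0 at an unadjusted p under 0.05. Cps1 (-0.05 ± 0.06) and Ahsg (-0.05 ± 0.06) had the other small p-values of that list. The 9 hepatocyte markers averaged 14.09 in HFD livers and 14.10 in RD livers, where the highest value of any probe set was 14.86. Whether such bright signals can show a change in hepatocyte content was not tested. The part of duct cell markers in the keratin values was not tested.

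Tubb2a had the largest difference of the 9 genes and ranked 18th from the top of all genes by difference. This beta tubulin (probe set 10408610) had log2 signals of 9.63, 9.68 and 9.88 in HFD livers, against 8.42, 8.65 and 8.06 in RD livers. The lowest HFD value lay 0.99 above the highest RD value, and the difference was 1.35 ± 0.14, or 2.56-fold. On dropping each single array in turn the difference ran from 1.20 to 1.49. Tubb2b (probe set 10408613), a beta tubulin with a nearly identical protein, had 7.33, 7.14 and 7.58 in HFD livers and 6.68, 7.21 and 6.89 in RD livers. RD replicate 2 lay above HFD replicate 2, and the difference of 0.42 ± 0.15 was not called with all arrays or without any 1 of them.

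The log ratio of the pair, Tubb2a minus Tubb2b, was 2.30, 2.54 and 2.30 in HFD livers and 1.74, 1.43 and 1.17 in RD livers, so their signals changed unequally. One further probe set (10399419), listed for Tubb2a, Tubb2b and a pseudogene together, had 6.35, 6.54 and 6.68 in HFD livers, against 5.83, 5.80 and 5.96 in RD livers. Its difference of 0.66 ± 0.10 lies between those of the 2 genes. Because the sequences are so alike, signal of one gene on the probes of the other was not tested.

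Tubb6 (probe set 10456400), a widely expressed beta tubulin of minor abundance, had log2 signals of 9.20, 9.05 and 9.35 in HFD livers, against 7.999, 8.44 and 9.11 in RD livers. The RD values span 1.11 and RD replicate 3 lies within the HFD values, which span 0.30. The difference of 0.68 ± 0.24 was not called, and was 0.98 and called without RD replicate 3, against 0.42 without RD replicate 1. Tuba8 (probe set 10541301), a divergent alpha tubulin, had 9.78, 9.11 and 9.42 in HFD livers and 8.65, 8.77 and 9.17 in RD livers. RD replicate 3 again lay above HFD replicate 2, and the difference of 0.57 ± 0.18 was not called with all arrays or without any 1 of them, at 0.40 to 0.74.

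The abundant alpha tubulins share their probe sets. The 4 sets listed for Tuba1c together with Tuba1b, 3 of them also with Tuba1a, differed by 0.29 to 0.34, or 1.23-fold to 1.27-fold. Probe set 10426650, for example, had 12.95, 12.93 and 12.95 in HFD livers and 12.58, 12.68 and 12.69 in RD livers. All 4 sets had every HFD value above every RD value. They name no single gene and share sequence, so they count as 1 observation of the group and not as a value of Tuba1c.

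**Figure D2:**
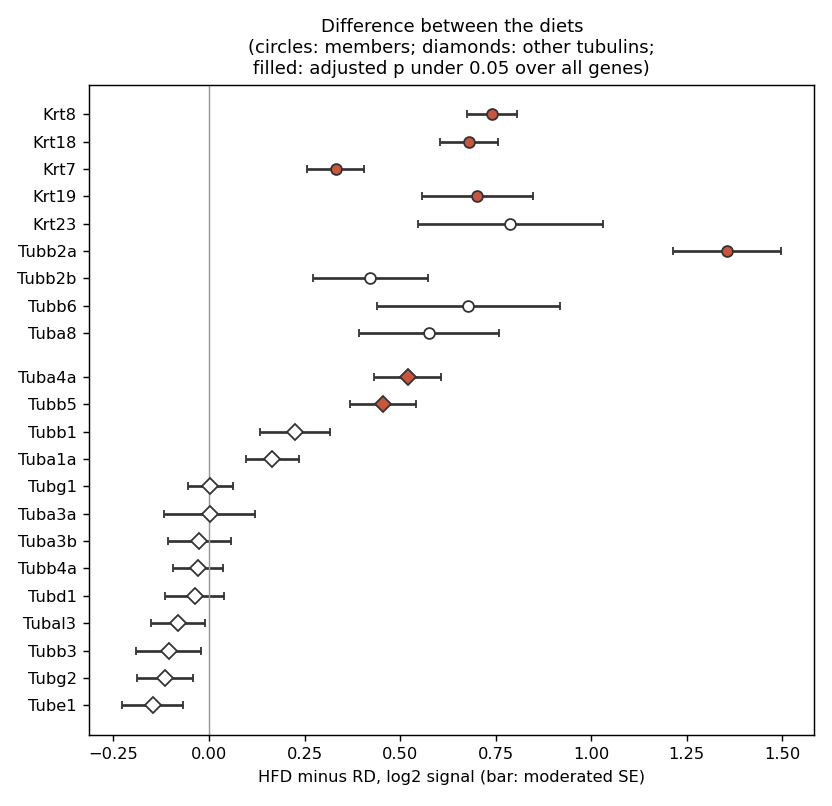
HFD minus RD difference in log2 signal with its moderated SE for the 9 measured genes (circles) and 13 other tubulins (diamonds); filled symbols were called. Differences of the members run from 0.33 to 1.35, while most other tubulins lie near 0 and Tuba4a and Tubb5 lie near 0.5. Of the 13 other tubulins 4, Tuba4a, Tubb5, Tuba1a and Tubg1, were among the brighter genes.

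The mean of the 3 beta tubulins was 0.82 higher in HFD livers, and that of the 4 measured tubulins 0.76 higher. Per array the 4 averaged 8.98, 8.74 and 9.06 in HFD livers and 7.94, 8.27 and 8.31 in RD livers. These differences sit beside 0.71 for the hepatocyte keratins and 0.61 for the duct keratins, and Tubb2a has the largest difference within the tubulin mean.

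Of the RD arrays, replicate 3 had the highest value for 5 of the 9 genes and replicate 1 the lowest for 6. Of the HFD arrays, replicate 3 likewise had the highest value for 5 of the 9 genes, and replicate 2 the lowest for 6. RD replicate 3 was also high in genes of dividing cells, and HFD replicate 3 had the highest mean of those markers among the HFD livers (8.21). Ccna2, a cyclin of S phase and mitosis, had 8.24, 7.98 and 8.93 in HFD livers and 8.17, 7.68 and 9.77 in RD livers. Bub1 and Aurka, which act at the spindle, had 7.25 and 8.34 in RD replicate 3. Their other arrays lay between 5.82 and 6.82 for Bub1 and between 7.35 and 8.03 for Aurka. Top2a, which untangles replicated DNA, had 8.10 in RD replicate 3 and 6.62 to 7.76 elsewhere.

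Over the 7 dividing cell markers measured, the mean signal was 7.69, 7.44 and 8.21 in HFD livers and 7.42, 7.16 and 8.66 in RD livers, and the summed signal was 10.40 to 11.20 in HFD livers and 10.13 to 11.69 in RD livers. None of the 7 was called in limma and 0 had an unadjusted p under 0.05, with differences of 0.22 ± 0.36 for Top2a, 0.22 ± 0.35 for Bub1, -0.10 ± 0.27 for Aurka and -0.16 ± 0.48 for Ccna2. Without RD replicate 3 the difference of Ccna2 was 0.46. Tubb6, Krt23 and Tuba8 were high in RD replicate 3 as well, Tubb2a was lowest there and Krt8 deviated by 0.023 from its diet mean. The remaining members deviated there by 0.046 (Krt7), 0.029 (Krt18), -0.075 (Krt19) and -0.038 (Tubb2b). In HFD replicate 3 the deviations of Tubb6, Krt23, Tuba8, Tubb2a and Krt8 were 0.15, 0.13, -0.020, 0.15 and 0.0092. The part of dividing cells in these values was not tested.

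**Figure D3:**
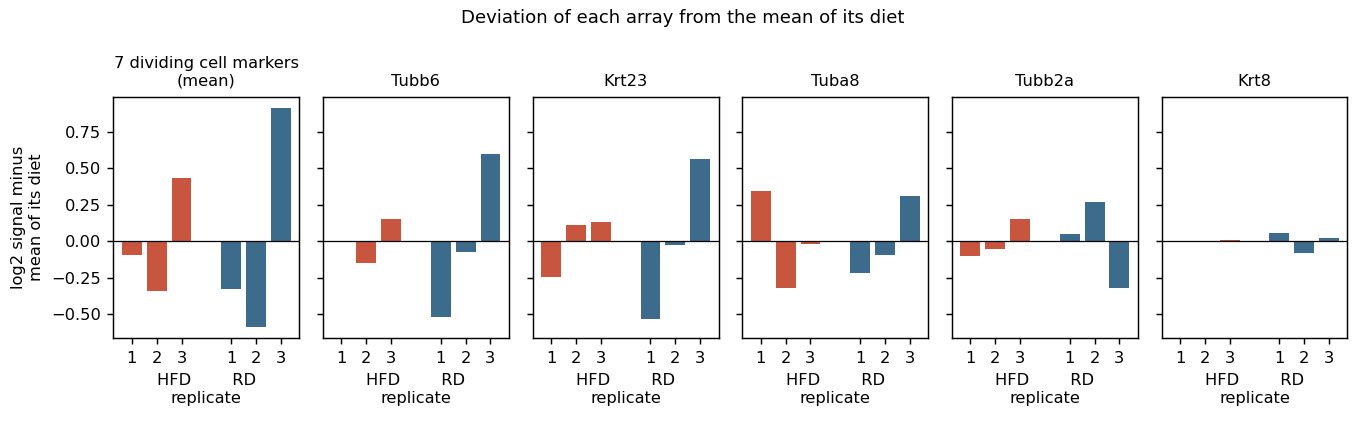
Log2 signal of each array minus the mean of its own diet, HFD (red) left of RD (blue), for the mean of 7 dividing cell markers and for 5 members; all panels share an axis. RD replicate 3 stands above its diet for the markers, Tubb6, Krt23 and Tuba8, and below it for Tubb2a.

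Among the remaining keratins, those of skin, hair and other epithelia, few were bright and 1 passed the test. Of 45 measured from 48 listed, 1 was called higher, beside 3.11% of all genes, and 0 lower. The differences were positive for 16 and negative for 29, with a median of -0.02, and 3 genes had an RD mean above the median of all genes. The called gene was Krt20, a type I keratin of the gut, at 5.87, 5.96 and 5.95 in HFD livers, against 5.59, 5.56 and 5.56 in RD livers (0.36 ± 0.06, adjusted p = 0.018 in limma). Its signal was dim, with a mean at percentile 22.2 of all genes in HFD livers and 16.6 in RD livers. Krt20 kept its call on dropping HFD replicate 1 but on dropping no other array (adjusted p at most 0.067). The others with the smallest p among type I keratins did not pass, Krt16 at -0.19 ± 0.12, Krt39 at -0.16 ± 0.08 and Krt34 at -0.11 ± 0.08. Nor did those of type II, Krt76 at -0.26 ± 0.15, Krt74 at 0.15 ± 0.08, Krt78 at -0.11 ± 0.08 and Krt72 at -0.10 ± 0.07. The 45 differences ran from -0.26 to 0.36.

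Of 15 other intermediate filament genes 1 was called higher and 0 lower, with 6 differences positive and 9 negative. Lmna, the lamin A and C gene of the nuclear envelope, rose by 0.44 ± 0.08 (adjusted p = 0.018), and was no longer called on dropping RD replicate 1, RD replicate 2 or HFD replicate 1 (adjusted p at most 0.070). Vim, the filament of mesenchymal cells and leukocytes, did not pass at 0.36 ± 0.15 and was 11.99 in HFD replicate 1, against 11.12 to 11.64 elsewhere. Ina (-0.15 ± 0.08) and Gfap (-0.11 ± 0.08) did not pass either, and the median of the list was -0.02.

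Desmosomes and linker proteins anchor keratin filaments. Of 12 of their genes 4 were called higher and 0 lower. Of the 12 differences 6 were positive and 6 negative, with a median of 0.07. Dsc2, a desmosomal cadherin, had 10.64, 10.59 and 10.52 in HFD livers, against 10.03, 9.96 and 10.24 in RD livers (0.51 ± 0.09, adjusted p = 0.016). The linkers periplakin, Ppl, rose by 0.56 ± 0.13 (adjusted p = 0.045), epiplakin, Eppk1, by 0.42 ± 0.09 (adjusted p = 0.030) and desmoplakin, Dsp, by 0.37 ± 0.08 (adjusted p = 0.036). On dropping 1 array the count was 0 (RD replicate 1, RD replicate 2), 1 (RD replicate 3, HFD replicate 1, HFD replicate 3) or 2 (HFD replicate 2). The other 8 members did not pass.

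Among 7 measured genes of Mallory-Denk bodies and keratin chaperones, 4 rose and 0 fell, with a median of 0.40. Hspb1, a small heat shock protein that binds filaments, had 12.05, 11.68 and 11.34 in HFD livers, against 10.54, 10.58 and 10.72 in RD livers (1.07 ± 0.16, adjusted p = 0.0085). Its call held on dropping any 1 array (adjusted p at most 0.043). Hspa1a, an inducible Hsp70 chaperone, rose by 0.60 ± 0.12 (adjusted p = 0.031), the crosslinking enzyme Tgm2 by 0.49 ± 0.10 (adjusted p = 0.028) and Sqstm1, the p62 adaptor of these bodies, by 0.40 ± 0.08 (adjusted p = 0.029). Hspa1a has a near-identical copy, Hspa1b, which had no probe set of its own here. On dropping 1 array the count was 1 (RD replicate 1, RD replicate 2, HFD replicate 1, HFD replicate 2), 2 (RD replicate 3) or 3 (HFD replicate 3).

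In the rest of the tubulin family 2 of 13 measured genes were called higher and 0 lower. Of the 13 differences 6 were positive and 7 negative, with a median of -0.03. Only 4 of the 13, Tuba4a, Tubb5, Tuba1a and Tubg1, were among the brighter genes, and Tubg1 differed by 0.0040 ± 0.06. Tuba4a, an alpha tubulin, had 11.91, 12.01 and 11.94 in HFD livers, against 11.42, 11.59 and 11.28 in RD livers (0.52 ± 0.09, adjusted p = 0.016), though not on dropping RD replicate 1 or HFD replicate 2 (adjusted p at most 0.064). Tubb5, the main beta tubulin of many tissues, had 12.01, 12.06 and 11.99 in HFD livers and 11.53, 11.44 and 11.73 in RD livers (0.46 ± 0.09, adjusted p = 0.023), and kept its call on dropping RD replicate 3 but on dropping no other array (adjusted p at most 0.090). Tubb1 (0.23 ± 0.09) and Tuba1a (0.17 ± 0.07) did not pass. The family's gamma, delta and epsilon tubulins were among those not called.

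Of 22 genes that fold tubulin or sense free tubulin, 19 of them among the brighter genes, 3 rose and 0 fell, the median was 0.07 and 18 differences were positive. Tbcel, which is related to the tubulin cofactor TBCE, had 10.65, 10.68 and 10.59 in HFD livers, against 10.21, 10.20 and 10.09 in RD livers (0.47 ± 0.07, adjusted p = 0.0075), and was called without each single array. Cct3 (0.36 ± 0.07, adjusted p = 0.031) and Cct4 (0.32 ± 0.07, adjusted p = 0.043), subunits of the chaperonin that folds actin and tubulin, also rose, and the cofactor Tbcb did not pass at 0.27 ± 0.07 (adjusted p = 0.052). On dropping 1 array the count was 2 (HFD replicate 1) or 1 (each other array). In limma 0 of 30 genes of microtubule dynamics and tubulin modification were called. An unadjusted p under 0.05 was found for 5 of the 30, beside 3926 of all 19938 genes. The growing-end proteins Clip1 (0.26 ± 0.06, adjusted p = 0.052), Mapre1 (0.22 ± 0.07) and Mapre2 (0.26 ± 0.10) and the neuronal Map1b (-0.17 ± 0.06) had the smallest p among them.

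Of 17 measured genes of the actin cytoskeleton, all among the brighter genes, 4 rose and 0 fell, and 16 had a positive difference, with a median of 0.19. Tmsb4x, which binds actin monomers, rose by 0.70 ± 0.15 (adjusted p = 0.036), Tagln2 by 0.60 ± 0.10 (adjusted p = 0.017), filamin Flna by 0.55 ± 0.11 (adjusted p = 0.031) and the crosslinker Actn1 by 0.40 ± 0.07 (adjusted p = 0.023). On dropping 1 array the count was 0 (RD replicate 1, RD replicate 3), 1 (RD replicate 2), 2 (HFD replicate 1, HFD replicate 2) or 3 (HFD replicate 3). Tmsb4x, at 11.21 in HFD replicate 1 and 10.58 and 10.64 in the other HFD livers, is also abundant in blood cells and macrophages.

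**Figure D4:**
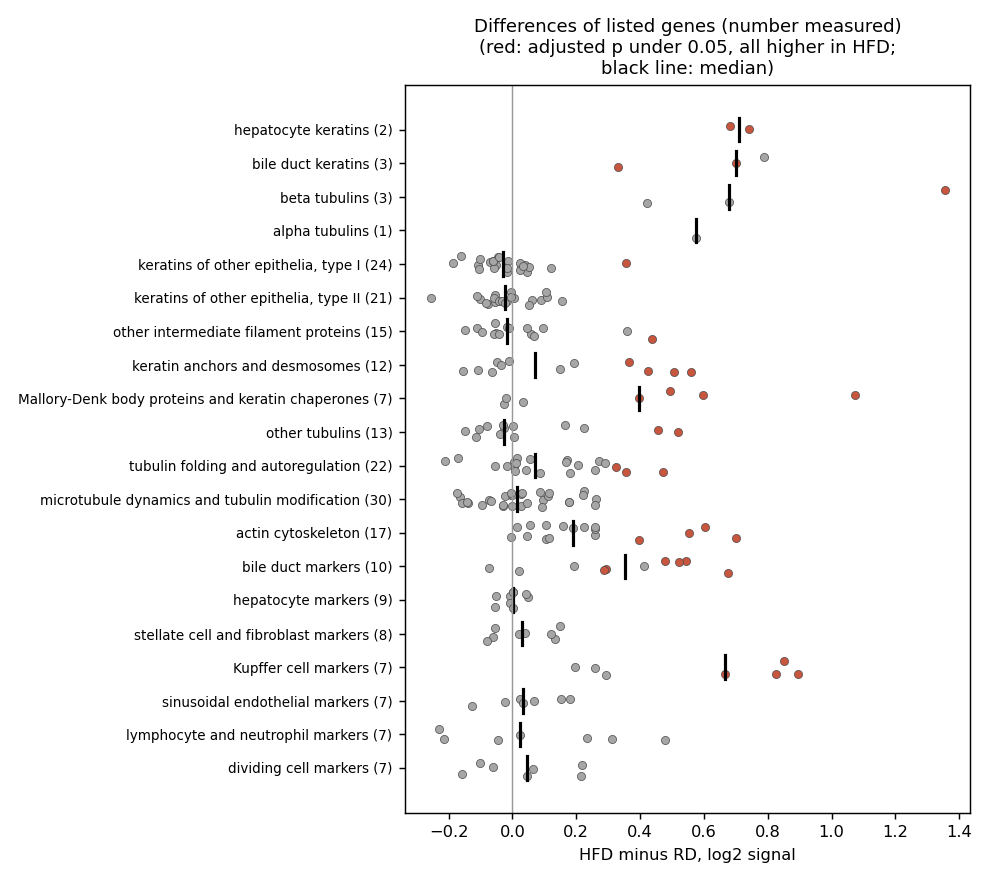
HFD minus RD difference in log2 signal of every measured gene of the member groups and of 16 other lists, with the number measured in brackets; red genes were called, grey genes were not, and black lines are medians. The member groups and the Kupffer cell markers have medians above 0.5, and the other keratins, other tubulins and hepatocyte markers have medians near 0.

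Some markers of resident macrophages were also higher in HFD livers. Of 7 Kupffer cell markers 4 rose and 0 fell, with a median of 0.67, and their summed signal was 13.37 to 13.82 in HFD livers and 13.12 to 13.21 in RD livers. Marco rose by 0.89 ± 0.21, Cd5l by 0.85 ± 0.12, Adgre1 by 0.82 ± 0.17 and Timd4 by 0.67 ± 0.11, with adjusted p from 0.0066 for Cd5l to 0.046 for Marco, and on dropping 1 array the count was 1 (RD replicate 1, RD replicate 2), 2 (RD replicate 3, HFD replicate 3) or 4 (HFD replicate 1, HFD replicate 2). HFD replicate 1, which was highest for Krt7, Krt19 and Tuba8, was also highest for these 4, and it was the lowest HFD array for Krt18, Krt23 and Tubb2a. The part of macrophages in the keratin and tubulin values was not tested.

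Other cell types gave no call in limma. Of 8 stellate cell and fibroblast markers 0 had an unadjusted p under 0.05, with Dcn at 0.15 ± 0.07, Hand2 at 0.12 ± 0.07, Colec11 at 0.13 ± 0.10 and Pdgfrb at -0.08 ± 0.09, and the summed signal was 13.52 to 13.60 in HFD livers and 13.41 to 13.49 in RD livers. Of 7 sinusoidal endothelial markers also 0 did, with Clec4g at 0.18 ± 0.08, Pecam1 at 0.15 ± 0.07, Stab1 at -0.13 ± 0.07 and Lyve1 at 0.07 ± 0.13, and a summed signal of 13.61 to 13.80 in HFD livers and 13.55 to 13.63 in RD livers. Of 7 lymphocyte and neutrophil markers 1 did, Ptprc at 0.48 ± 0.19, while S100a8 (-0.21 ± 0.09), Cd3e (0.23 ± 0.12) and Cd79a (-0.23 ± 0.14) did not, and the summed signal was 9.84 to 10.39 in HFD livers and 9.76 to 9.87 in RD livers.

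Before profiles were compared, genes with symbols of predicted genes, clones, microRNAs, small nucleolar RNAs or smell and pheromone receptors were left out. The same filter also dropped symbols made of C and a number, a form that complement genes share, and symbols that begin with D and a digit. Profiles most like 3 of the members were looked up over the 6 arrays, where the points share the diet contrast and a high r mostly restates it. For Krt8 they were those of the phospholipase Pla2g6 (Pearson's r = 0.999), the glutathione reductase Gsr (0.998) and the cytochrome Cyp2c29 (0.996). These 3 genes differed by 0.70 ± 0.06, 0.66 ± 0.07 and 0.38 ± 0.06. For Krt19 they were Arhgef16 (0.996), the annexin Anxa6 (0.995) and the interleukin receptor Il17rc (0.992), with differences of 0.28 ± 0.08, 0.21 ± 0.07 and 0.27 ± 0.07. For Tubb2a they were the antiproliferative gene Btg1 (0.995), Impg2 (0.994) and Wdtc1 (0.993), with differences of 0.52 ± 0.07, 0.52 ± 0.08 and 0.26 ± 0.06. Among the members themselves, r with Krt8 was 0.97 for Krt18, 0.95 for the duct keratin Krt7 and 0.94 for Tubb2a, and was lowest for Tubb2b, at 0.67. Tubb6 and Krt23 had 0.95 with each other.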

How the data were processed

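Total RNA of 6 mouse livers, 3 after HFD and 3 after RD, was measured on arrays after GeneChip terminal labelling, per the labels' protocols. The authors deposited log2 values for 35512 probe sets. Base 2 was inferred from their range of 2.28 to 14.86. Summarisation and normalization: not given in the sources used here. Values were used as deposited, and dim probe sets were kept. Of the probe sets, 21789 had 1 symbol in the platform annotation, 1621 several and 12102 none. Each gene was read from its brightest probe set (mean over 6 arrays), for 19938 genes. A model of diet alone was fitted in limma 3.58.1 (R 4.3.3; lmFit and eBayes) with two-sided p-values, Benjamini-Hochberg adjusted over the whole table, and called under 0.05.

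Members, lists and tests were chosen with earlier results of these data known. Named are all members, up to 4 genes of smallest p per list, and the 3 profiles most like each of Krt8, Krt19 and Tubb2a. Those profiles came from the genes kept after the filter on symbols. In a simulation of HFD against RD with 200 altered genes among 19938, 65.7% of log2 changes of 0.5, 88.1% of those of 1 and 100% of those of 2 were recovered, and 8 of 177 calls were false. Its noise was normal, independent between genes and arrays, with each gene's own spread. Fewer genes were altered than were called in the data, so these shares need not hold for these arrays. Alternatives tried were quantile normalization, median centring, restriction to brighter genes, averaging a gene's probe sets, a robust prior with intensity trend, a block for replicate number, a minimum fold of 1.5, and dropping each array.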

Additional observations from a re-analysis of the deposited data

How the results depend on the processing

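The 9 members kept a positive difference under the 12 refits run, or the 11 open to Krt7, Krt23 and Tubb2b, which are not among the brighter genes, and Krt8, Krt18 and Tubb2a were called in each, which describes the contrast that chose them and is no support. The intensity trend with robust prior, the replicate block and the restriction to brighter genes cannot change a gene's difference. Averaging a gene's probe sets left the member group means as they were. Members called numbered 3 to 5 on leaving out 1 array, and the 5 without RD replicate 3 were Krt8, Krt18, Krt23, Tubb2a and Tubb6. Of all genes tested, 621 were called higher and 446 lower, with 862 and 619 among the brighter genes, 850 and 615 with an intensity trend and robust prior, and 726 and 384 with median centring. Without 1 array they numbered 197 to 371 higher and 178 to 273 lower, with fewer arrays. List counts of higher genes ranged, without 1 array, from 0 to 1 for type I keratins of other epithelia and for other intermediate filament proteins, 0 to 2 for keratin anchors, other tubulins and bile duct markers, 1 to 2 for tubulin folding, 0 to 3 for actin, 1 to 3 for Mallory-Denk body genes and 1 to 4 for Kupffer cell markers. Genes that were not called changed sign without 1 array, with ranges of -0.15 to 0.0052 for Pdgfrb, -0.024 to 0.21 for Lyve1, -0.060 to 0.68 for Top2a, -0.59 to 0.46 for Ccna2, -0.027 to 0.69 for Bub1 and -0.31 to 0.21 for Aurka. Deviations of same-numbered arrays correlated at -0.11, 7.2e-05 and 0.12, and those of differently numbered arrays at -0.12 to 0.13. Deviations are taken from a mean of 3 arrays per diet, so these values are tied to each other. They cannot settle whether the numbers pair livers, and the main fit assumed no pairing. With the replicate block 318 genes were higher and 245 lower, members called were 4 (Krt8, Krt18, Krt23 and Tubb2a), and list counts were 0 for type I keratins and other intermediate filament proteins, 1 for other tubulins, tubulin folding and actin, 2 for keratin anchors and Mallory-Denk body genes and 3 for bile duct markers. A fold of at least 1.5 left 208 higher and 151 lower genes, with 0 for type I keratins, other intermediate filament proteins, keratin anchors, other tubulins and tubulin folding, 1 for bile duct markers and 2 for Mallory-Denk body genes and actin. Tubulin folding had 5 and microtubule dynamics 1 with median centring, among the brighter genes, and with an intensity trend and robust prior; the brighter genes held 0 type I keratins called. Among the brighter genes the mean difference was 1.02 for beta tubulins, from Tubb2a and Tubb6, and 0.70 for duct keratins, from Krt19 alone. The causes of these shifts were not tested beyond fewer arrays and fewer genes.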
